A study of Mus musculus with 4 samples.

Results

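Peaks of the estrogen receptor alpha, ESR1, were examined in stretches of the mouse genome that held many sites in uterus and none in the liver list. Each autosome was divided into windows of 1 Mb from position 0, and the summits of ESR1 peaks from mouse uterus and mouse liver were counted in each window. A window was taken if it held 15 or more uterus summits and 0 liver summits. Of 2477 autosomal windows, 76 met this rule. They held 1555 of the 24527 autosomal uterus peaks and of the 24836 uterus peaks outside chromosome Y. These 1555 peaks were thus chosen by the called positions in both lists, so their number per window and the lack of liver summits are descriptions and not findings.

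ESR1 is a nuclear receptor that binds estrogens and acts as a transcription factor. It contacts DNA as a dimer at estrogen response elements, or indirectly through other factors, and most of its sites lie away from promoters, often several around one target gene. The uterus is a classical estrogen target, in which ESR1 in epithelium, stroma and muscle drives growth in the cycle. Liver cells also express the receptor, where it takes part in lipid metabolism.

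The tissues were flash-frozen liver and uterus of female C57BL/6 mice aged 8 weeks, crosslinked in 1% formaldehyde and used for chromatin immunoprecipitation with sequencing (ChIP-seq). The series held 4 samples, an ESR1 library and an input control for each tissue. A hormone treatment, the stage of the cycle and the number of animals behind a library are not stated in the labels. The uterus ESR1 library held 22298008 unique tags with 22020520 in its control, and the liver library 20016495 with 18781348, per the file headers. The uterus list was the longer, at 24836 peaks against 6932, with chromosome Y left out of both counts. With 1 library per tissue, replicate error could not be measured and no test was run. Intervals are 95% intervals over peaks or windows of 1 library. They cover counting error only, and they are too narrow where neighbouring peaks resemble each other.

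The 76 windows were a small part of the uterus-rich genome. Windows with 15 or more uterus summits numbered 642, or 25.9% of all windows, and 11.8% of these 642 lacked a liver summit, against 41.6% of windows of any kind. The 76 windows made up 3.07% of all windows. These counts are those of the rule and are given as background. Of the windows with 1 to 4 uterus summits, 69.1% (Wilson interval 65.2 to 72.8) had no liver summit, and of those with 10 to 14 it was 22.0% (18.3 to 26.1). The share was 15.3% (11.7 to 19.8) at 15 to 19 uterus summits, 11.04% (7.01 to 16.97) at 20 to 24, 6.32% (2.93 to 13.1) at 25 to 29 and 7.61% (3.73 to 14.9) at 30 or more. The last of these groups held 92 windows, which had a median of 6 liver summits, and 7 of them had none.

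**Figure D1:**
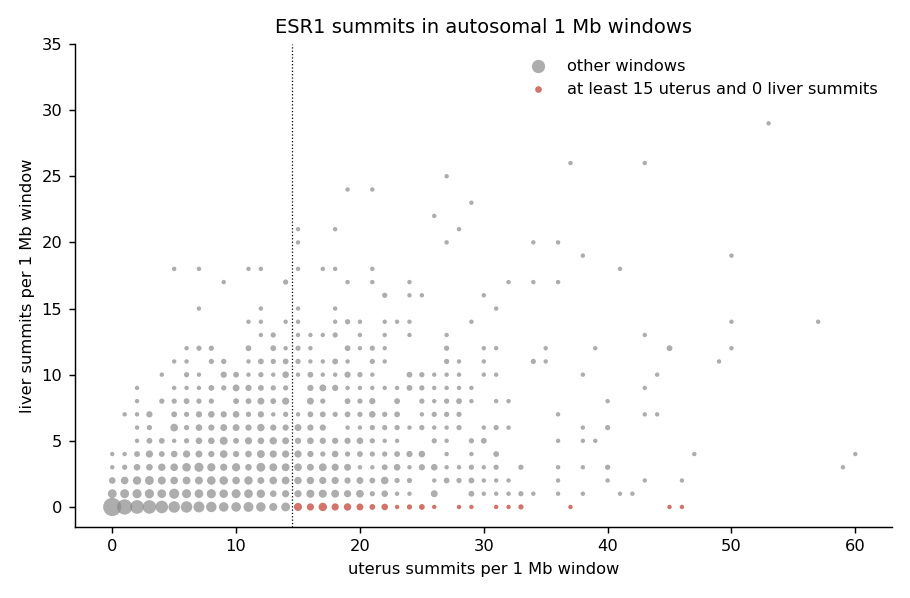
Uterus summits (x axis) against liver summits (y axis) per autosomal window of 1 Mb; dot area grows with the square root of the number of windows, and the dotted line marks the threshold of 15 uterus summits. The 76 windows in red lie along the lower edge, from 15 to 46 uterus summits, while most windows right of the line have at least 1 liver summit.

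The windows differed in how full they were. They held between 15 and 46 uterus summits with a median of 18.5, and 46 of the 76 held 15 to 19. The tags in their peaks summed to between 653 and 4838 per window, with a median of 1510, and the peaks covered 7484 to 31380 bp of the 1 Mb. All 1555 peaks together covered 1025.2 kb and held 132353 tags. That was 0.594% (Wilson interval 0.590 to 0.597) of the unique uterus tags and 6.80% (6.77 to 6.84) of the tags in autosomal uterus peaks, from 6.34% (6.04 to 6.65) of the peaks.

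The fullest window lay on chromosome 4 at 105000000 to 105999999 (mm9, as are all positions here) and held 46 summits with 4838 tags. Its peaks ranged from 6.73- to 115-fold enrichment over control, with a median of 14.7, and the summits were spread over 984 kb, with no more than 8 of them in any 100 kb. Liver summits lay close outside both edges, 18.1 kb before the start and 136 kb after the end, so that the stretch free of liver summits was only 1154 kb long. The windows to its left and right held 7 and 11 liver summits. The next, on chromosome 19 at 24000000 to 24999999, held 45 summits with 3926 tags and a median of 14.46-fold. Here 33 of the 45 had another uterus summit within 10 kb, and 15 lay inside 100 kb, between 24033564 and 24128699. These 2 windows held nearly the same number of sites, but the first had at most 17.4% of them in any 100 kb and the second 33.3%.

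The third window lay on chromosome 14 at 23000000 to 23999999, with 37 summits and 4620 tags, and had the highest median tags of the 12 fullest, at 86 per peak. It adjoined another such window at 24000000 to 24999999 with 26 summits, and the pair shared a stretch of 2656 kb without a liver summit. On chromosome 7 the window at 141000000 to 141999999 held 33 summits with 3764 tags, and that at 103000000 to 103999999 held 31 with 3008. The window on chromosome 8 at 105000000 to 105999999 also held 33 summits, with 3091 tags, and adjoined one at 106000000 to 106999999 with 22. On chromosome 4, the window at 114000000 to 114999999 held 32 summits, 15 of which lay between 114059364 and 114149768. These 7 windows of 30 or more summits came from chromosomes 4, 7, 8, 14 and 19.

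The remaining windows among the 12 fullest held 25 to 29 summits. On chromosome 2, the window at 74000000 to 74999999 held 29 summits with 2188 tags, and its strongest peak reached only 55.8-fold, the lowest maximum of the 12. The window on the same chromosome at 159000000 to 159999999 held 28 summits at a median of 21.4-fold. That on chromosome 9 at 105000000 to 105999999 held 25 summits at a median of 21.7-fold, the highest of all 76 windows. The window on chromosome 1 at 170000000 to 170999999 held 25 summits at a median of 14.8-fold. Among all 76, the lowest median was 10.7-fold, on chromosome 7 at 82000000 to 82999999, a window picked out after its value was seen.

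**Figure D2:**
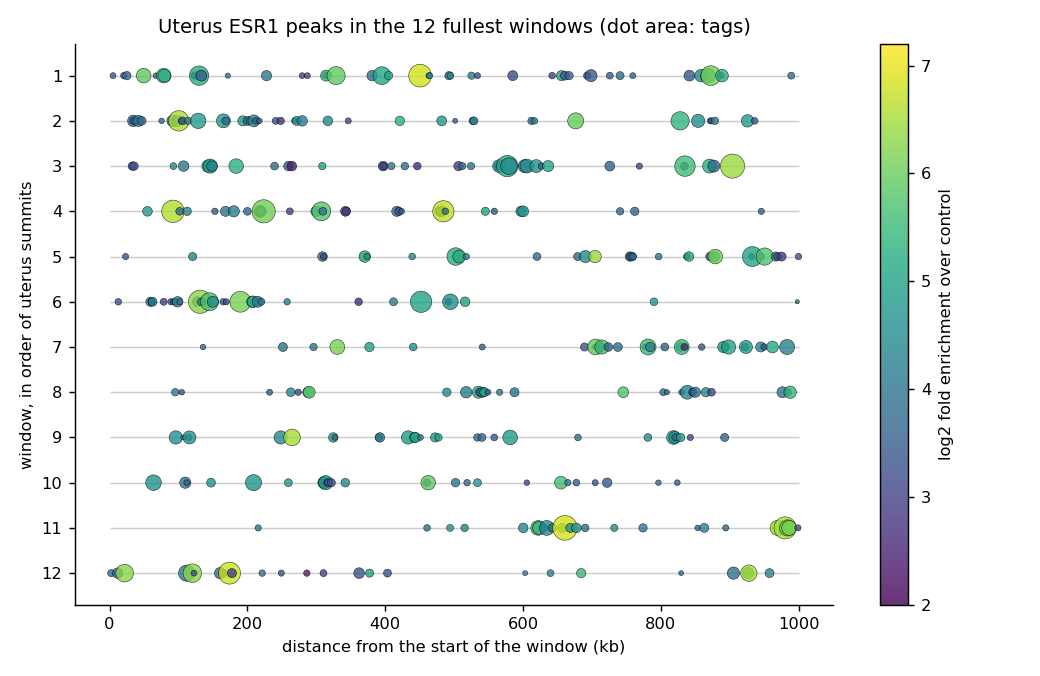
Uterus ESR1 peaks in the 12 fullest windows, by distance of the summit from the start of the window in kb (x axis), one line per window in order of uterus summits; dot area is proportional to tags and colour gives log2 fold enrichment over control. Sites reach along the whole line both in the window with 46 summits and in that with 32. In the latter, 15 of the 32 lay within 100 kb near the start.

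In 7 pairs, windows adjoined each other. Besides the pairs on chromosomes 14 and 8, they lay on chromosome 1 (11000000 to 12999999, 15 and 16 summits), chromosome 4 (13000000 to 14999999, 16 and 17, and 84000000 to 85999999, 17 and 19), chromosome 5 (131000000 to 132999999, 24 and 17) and chromosome 15 (11000000 to 12999999, 16 and 17). By chromosome, the number of windows went from 0 to 8. Chromosome 4 had the most, with 8 of its 40 uterus-rich windows and 179 peaks, followed by chromosome 1 with 7 of 52. Chromosome 19 had the highest share, at 4 of 18 (22.2%, interval 9.0 to 45.2). Chromosome 12 had none among 25 uterus-rich windows, which allows a share of up to 13.3% by the Wilson interval, so it cannot be told from the 11.8% of all autosomes. Chromosome 11, which held the most liver peaks, 547, had 2 of 48.

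Peaks just inside and just outside the thresholds had similar medians of fold enrichment and tags. The 11 windows with exactly 15 uterus and 0 liver summits held 165 peaks with a median of 16.1-fold and 53 tags. The 16 windows just outside, with 14 uterus and 0 liver summits, held 224 peaks, also with a median of 16.1-fold and 53 tags. The share of peaks with another uterus summit within 10 kb was 46.7% inside and 38.8% outside. On the other side, 83 uterus-rich windows had exactly 1 liver summit, more than the 76 with none. Their 1753 peaks had a median of 15.7-fold and 58 tags, against 15.8-fold and 57 tags in the 1555. More windows were thus 1 liver summit away from the rule than met it.

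The uterus peaks in the windows differed widely in strength. Fold enrichment went from 4.40 to 161, with quartiles of 11.5 and 24.2, tags from 16 to 559 and width from 219 to 2864 bp. The strongest, on chromosome 16 at 73362677 to 73363203, was 161-fold enriched with 227 tags and ranked 2 by fold enrichment among all autosomal uterus peaks. It stood alone, as the nearest other uterus summit was 117 kb away and the nearest liver summit 2404 kb. The second, on chromosome 5 at 131886675 to 131887862, was 135-fold enriched with 358 tags. The third, on chromosome 14 at 102282013 to 102282624, was 130-fold enriched with 221 tags in only 612 bp. These were followed by a peak of 1602 bp on chromosome 3 at 53958327 to 53959928 (120-fold, 376 tags) and one on chromosome 4 at 84053051 to 84053989 (117-fold, 382 tags).

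The peaks ranked 6 to 12 lay between 99.6- and 115-fold. Of these, the peak on chromosome 9 at 105660473 to 105661639 held 555 tags at 115-fold, in the window with the highest median. The peak on chromosome 4 at 105450208 to 105451097 held 475 tags in 890 bp, or 534 tags per kb, the highest tag density of all 1555, and belonged to the fullest window. The others lay on chromosome 1 (170173709 to 170174588, 110-fold), chromosome 8 (80292378 to 80293455, 105-fold, and 18216366 to 18217219, 102-fold), chromosome 7 (141483739 to 141484890, 103-fold) and chromosome 9 (36914169 to 36915026, 99.6-fold). The 12 leading peaks came from 12 different windows. The closest other uterus summit was 1.6 to 117 kb from them, so strong sites stood both alone and inside groups. Their nearest liver summit was 143 to 3366 kb away.

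By tags the order was different. The highest count was on chromosome 4 at 152322505 to 152323745, with 559 tags at 98.1-fold. The chromosome 9 peak with 555 tags came next, followed by peaks on chromosome 14 at 23903007 to 23904554 (537 tags, 85.1-fold), chromosome 10 at 22594871 to 22596080 (528 tags, 62.1-fold), chromosome 4 at 114131001 to 114132793 (497 tags, 77.4-fold) and chromosome 7 at 141222491 to 141224109 (496 tags, 67.2-fold). At the other end, the lowest fold enrichment was 4.40, with 58 tags, on chromosome 19 at 9144300 to 9145062, and the fewest tags were 16, at 15.3-fold, on chromosome 4 at 114998045 to 114998263. A strong peak was present in most windows. At least 1 peak of 50-fold or more was found in 57 of the 76 windows (64.2 to 83.4%), against 386 of the 566 uterus-rich windows with liver summits (68.2%, 64.3 to 71.9), and the intervals overlap. Of the 1555 peaks, 183 were in the top decile of fold enrichment of the autosomal list, or 11.8% (10.3 to 13.5), beside 10.1% of all peaks, and 101 reached 50-fold, or 6.50% (5.37 to 7.83), beside 5.54% of all autosomal uterus peaks.

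Compared with the rest of the uterus list, the peaks had a slightly higher median fold enrichment. Their median was 15.8-fold against 14.6 in the other 22972 autosomal uterus peaks, a difference of 1.20 (0.65 to 1.71). Against the 12852 peaks of uterus-rich windows with liver summits, whose median was 14.3, the difference was 1.54 (0.97 to 2.05). Against the 21345 other peaks that overlapped no liver peak it was 1.08 (0.52 to 1.58). The median tags were 57 against 55 in the other peaks, a difference of 2 (-0.24 to 4). The difference in tags was -2 (-4.24 to 0.24) against uterus-rich windows with liver summits, 3 (1 to 5.24) against peaks overlapping no liver peak and 6 (4 to 8.24) against windows with fewer than 15 uterus summits. The median widths were 590 and 580 bp, a difference of 10 bp (-4.32 to 20.4). Tags per kb of peak were 94.2 against 91.4, a difference of 2.81 (0.88 to 6.11), which became 0.21 (-1.83 to 3.54) against uterus-rich windows with liver summits. In windows, 49 of the 76 had a median above the 14.7-fold of all autosomal uterus peaks, or 64.5% (53.3 to 74.3), against 245 of 566 (43.3%, 39.3 to 47.4) with liver summits and 45.8% of all uterus-rich windows.

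The same held in windows of equal fullness. In windows of 15 to 19 uterus summits the median was 15.7-fold (14.8 to 16.5) without and 14.3-fold (13.97 to 14.6) with liver summits. At 20 to 24 summits it was 15.7 (14.2 to 16.8) against 14.05 (13.8 to 14.4), and at 25 or more it was 15.9 (14.9 to 17.3) against 14.6 (14.3 to 14.9). Across the 76 windows, the number of summits and the median fold enrichment had a rank correlation of -0.003, and the number of summits and the median tags one of 0.323. These describe windows that share 1 library and its depth.

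The higher fold enrichment was not limited to the 76 windows, but followed the number of liver summits in a window. In uterus-rich windows the median fell from 15.8-fold (15.3 to 16.3) with 0 liver summits to 15.7 (15.2 to 16.3) with 1, 14.7 (14.3 to 15.1) with 2 or 3, 14.2 (13.9 to 14.5) with 4 to 7 and 13.7 (13.4 to 13.97) with 8 or more. Windows with fewer than 15 uterus summits showed the same order, from 16.4-fold (15.99 to 16.8) with 0 liver summits to 12.8 (12.4 to 13.4) with 8 or more. Without the uterus peaks that overlapped a liver peak, the order was the same, with medians in uterus-rich windows of 15.8, 15.7, 14.8, 14.3 and 13.8. Tag density showed no such order in uterus-rich windows. The medians of tags per kb in the 5 groups of uterus-rich windows were 94.2, 94.4, 94.0, 93.6 and 94.2. The median tags per peak were 57, 58, 57, 58 and 61. In windows with fewer than 15 uterus summits the median tags rose from 47 to 57 over the same 5 groups, with tags per kb between 86.8 and 90.1. The order of fold enrichment was thus not that of the tags. The median ratio of tags per kb to fold enrichment rose with the number of liver summits. It was 6.05, 6.06, 6.30, 6.54 and 6.84 in the 5 groups of uterus-rich windows. In windows with fewer than 15 uterus summits it rose from 5.23 to 6.72. Control tags at these sites were not counted directly, and a cause of the order was not tested.

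**Figure D3:**
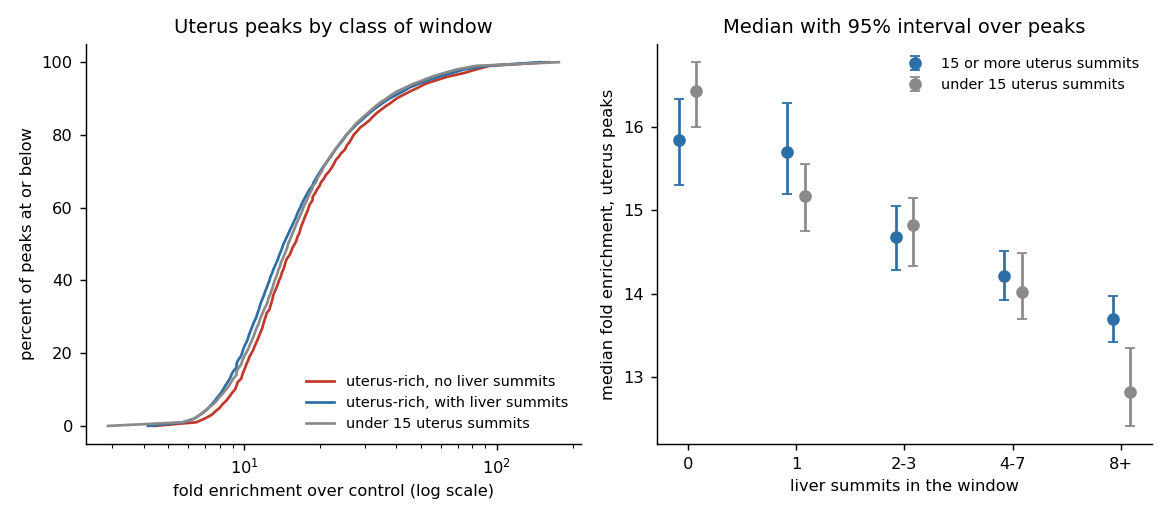
Left, cumulative percent of uterus peaks (y axis) by fold enrichment over control (x axis, log scale) in the 3 classes of windows; right, median fold enrichment of uterus peaks by the number of liver summits in their window, with 95% order-statistic intervals. The 3 curves nearly coincide, and the medians on the right fall from 15.8 to 13.7 in uterus-rich windows and from 16.4 to 12.8 in the others.

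Within the windows, sites stood alone or close to others. Of the 1555 peaks, 845 had another uterus summit within 10 kb, or 54.3% (51.9 to 56.8), beside 47.7% of all autosomal uterus peaks. Windows with many summits must have closer ones, so this share was set beside that of uterus-rich windows with liver summits, where it was higher, at 58.2% (57.3 to 59.1), a difference of -3.86 percentage points (-6.48 to -1.25). Those windows were also fuller, with a median of 20 summits against 18.5. In windows of equal fullness the direction was not steady. The share was 48.2% (44.7 to 51.7) against 50.2% at 15 to 19 summits, 57.4% (52.3 to 62.4) against 54.3% at 20 to 24, and 63.1% (58.4 to 67.6) against 66.4% at 25 or more. The median distance to the next uterus summit was 8348 bp.

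Runs of summits no more than 10 kb apart were mostly short, here and in the other windows. Of the 1555 peaks, 710 stood alone (45.7%), 383 were in runs of 2 (24.6%) and 462 in runs of 3 or more (29.7%). In windows with fewer than 15 uterus summits these shares were 66.6%, 22.1% and 11.3%. They were 41.8%, 24.3% and 33.9% in uterus-rich windows with liver summits, which were also fuller. Peaks in runs of 3 or more held a median of 67.5 tags (62 to 75) against 51 (49 to 54) for those that stood alone. Their tags per kb were 104 against 89.9. Fold enrichment was 17.1 (16.1 to 18.1) against 15.3 (14.4 to 16.2), and these intervals overlap. It was 15.3 in runs of 2 and 15.8 (13.5 to 18.7) in runs of 5 or more. The same order of tags was present in uterus-rich windows with liver summits, at 68 against 53. Runs of 5 or more held 7.65% (6.43 to 9.08) of the 1555 peaks, against 12.4% there (1596 of 12852), and the longest run was of 7 summits, against 13 in the more numerous and fuller windows there. At 15 to 19 summits the shares were 6.19% (4.70 to 8.11) and 6.43%, at 20 to 24 they were 5.49% (3.58 to 8.33) and 8.44% (7.49 to 9.49), and at 25 or more they were 12.3% (9.47 to 15.8) and 19.2% (18.2 to 20.2). Runs of 5 or more were found in 18 of the 76 windows. The run of 7 lay on chromosome 19 from 24033564 to 24046564, with 465 tags in all and no peak above 20.2-fold. A run of 6 on chromosome 8 from 80279053 to 80298695 was built differently, with 752 tags and a strongest peak of 105-fold beside one of 9.83-fold. On chromosome 9, 6 summits between 92455765 and 92467418 held 647 tags, with folds from 7.99 to 76.7. These runs were picked by length after the values were seen.

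In a median window, the densest 100 kb held 7 summits, or 33.3% of those in the window, and in 9 of the 76 windows it held 50% or more, against 77 of 566 uterus-rich windows with liver summits (13.6%). By the share in the densest 100 kb, the most compact was the window on chromosome 9 at 36000000 to 36999999, in which 15 of 20 summits lay between 36855326 and 36954689. On chromosome 19, at 9000000 to 9999999, 11 of 15 lay between 9144525 and 9207327, and all 15 within 165.6 kb, the smallest spread of the 76 windows. Both were picked after their values were seen. In these windows most sites formed 1 cluster, while in the fullest they lay along the whole megabase. The share of tags held by the strongest peak went from 7.78% to 35.3% per window, with a median of 15.5%.

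The lack of liver summits ended at different distances. None of the 1555 peaks overlapped a liver peak, beside 6.63% of all autosomal uterus peaks. The median distance to the nearest liver summit was 706687 bp, with a range of 6140 to 4419621 bp. Both follow largely from the choice of windows without liver summits and are descriptions. A liver summit lay within 100 kb outside an edge in 25 of the 76 windows, and in 33 of them both adjoining windows held liver summits. Both adjoining windows were free of liver summits in 11. For 75 windows a liver summit was found on both sides, which gave 68 separate stretches without one. They were 1.14 to 14.7 Mb long, with a median of 2.36 Mb. Of the 68, 24 were 3 Mb or longer and 11 were 5 Mb or longer. The window on chromosome 5 at 4000000 to 4999999, named for this reason, had no liver summit between it and the start of the chromosome.

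**Figure D4:**
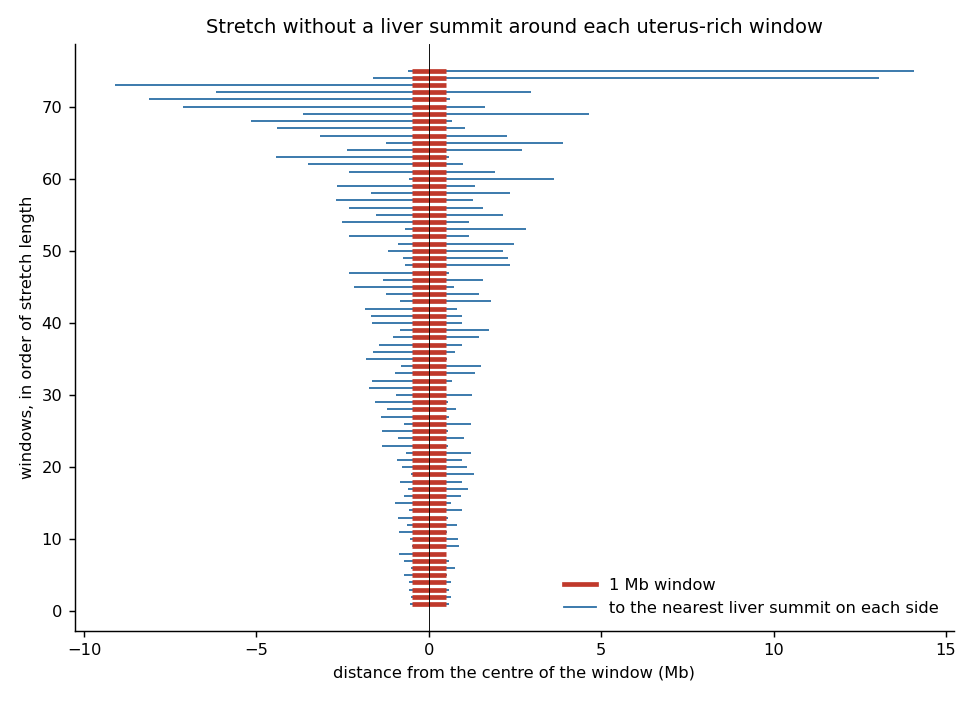
Stretch without a liver summit around each of 75 windows, as distance in Mb from the centre of the window (x axis), in order of length (y axis); the red bar is the 1 Mb window and the blue line reaches to the nearest liver summit on each side. Adjoining windows share a stretch and are drawn one each; the lengths run from 1.14 to 14.7 Mb.

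The windows on either side mostly held liver summits. Of the 150 windows adjoining the 76, 54 had no liver summit, or 36.0% (28.8 to 43.9), beside 41.6% of all autosomal windows. Uterus-rich themselves were also 54 of the 150, or 36.0%, beside 25.9% of all autosomal windows. The 14 windows of the 7 pairs are among them in both counts. Next to uterus-rich windows with liver summits, 213 of 943 had none, or 22.6% (20.03 to 25.4), and 382, or 40.5%, were uterus-rich. Without the windows that met the rule themselves, it was 40 of 136 (29.4%, 22.4 to 37.5) against 177 of 907 (19.5%, 17.1 to 22.2). At 2 Mb the shares were 33.1% (26.0 to 41.0) and 31.9% (29.04 to 34.9), and at 3 Mb 36.5% (29.2 to 44.5) and 33.5% (30.6 to 36.5). The mean number of liver summits was 2.73 in the adjoining windows and 3.32 at 2 Mb, against 4.15 and 3.62 around uterus-rich windows with liver summits. The uterus summits fell off too, from a mean of 13.03 in the adjoining windows to 10.9 at 2 Mb and 10.6 at 3 Mb. Around uterus-rich windows with liver summits they fell likewise, from 14.02 to 12.4 and 11.9. The intervals of the share without liver summits were thus apart at 1 Mb and overlapped at 2 and 3 Mb.

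**Figure D5:**
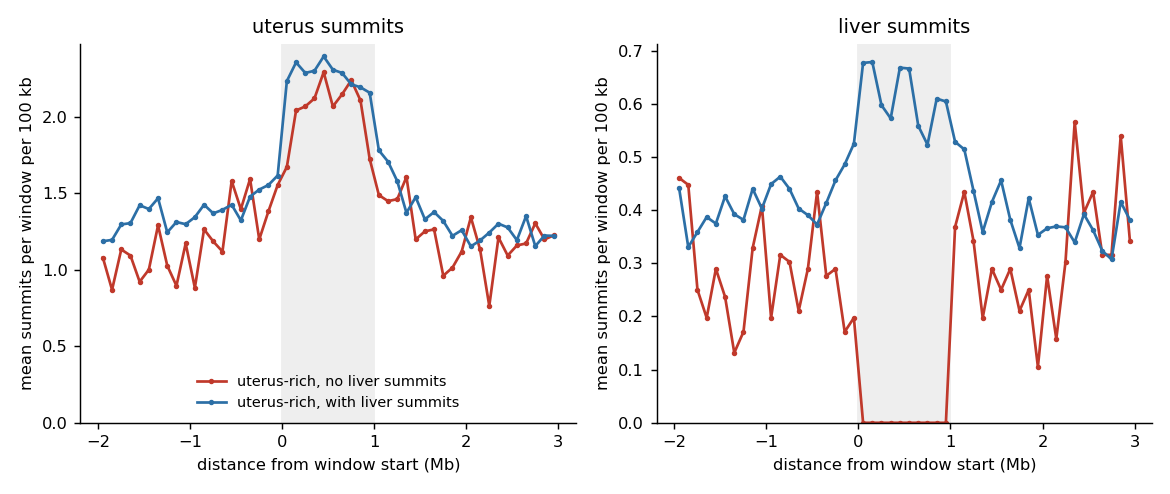
Mean uterus (left) and liver (right) summits per window and 100 kb (y axes) by distance from the start of the window in Mb (x axis), for the 76 windows and for uterus-rich windows with liver summits; the grey band is the window itself. Inside the band the counts follow from the rule, and outside it the liver line of the 76 windows returns from 0 to between 0.105 and 0.566 summits per 100 kb.

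The liver list sets what an empty window means. It holds sites called at a p cutoff of 1e-10, so weaker ESR1 binding in liver was not detectable here and is not shown to be absent. Which windows qualify depends on that list. With 1 liver summit allowed, 159 windows and 3308 peaks qualified, and with the liver list cut to a MACS score of at least 200 it was 194 windows and 4192 peaks. The median fold enrichment stayed above that of the other peaks in both, by 1.23 (0.77 to 1.66) and 0.88 (0.49 to 1.24). Genes in the windows and the sequences under the peaks are not analysed here, because no genome or annotation of the mm9 build was used.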

How the data were processed

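ESR1 peaks were called by the authors with MACS 1.3.7.1 on mm9, per the submitters' processing notes, separately in each library against 1 control, with a p cutoff of 1e-10, tags of 50 bp and a band width of 300 bp, per the file headers. No source used here names the aligner. Each deposited peak carries a raw tag count, not scaled to depth, a fold enrichment, which is a ratio to the local control level, a score of 10 times −log10 of the p-value, and a false discovery rate in percent, which was 0 for all uterus peaks as rounded. Positions, widths and summits are in bp. A peak's position was start plus summit minus 1. All deposited autosomal peaks were used, with no filter on low values.

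Windows, distances and overlaps (at least 1 bp) were computed with Python 3.11.15 (scipy 1.17.1, numpy 2.4.6, matplotlib 3.10.9, pandas 2.3.3). Shares have Wilson, differences of shares Newcombe intervals. Medians have binomial order-statistic intervals, combined in the same way for differences. No test was run, with 1 library per tissue. Window assignment, distances, overlaps and the interval of a difference of medians were tested on simulated data. The interval of a median was tested on random draws from the uterus list. Wilson and Newcombe intervals were not tested. Windows named by rule are the 12 fullest and those adjoining another, and 4 more were named after their values were seen; peaks named are the 12 of highest fold enrichment, the 6 with most tags and the 2 lowest. The peaks and rules were chosen with earlier results of these data known. Alternatives were other thresholds, window starts, stricter lists, a margin, other comparison peaks and neighbour distances. Planned searches for estrogen response elements and gene lists were left out, as the reference table was of build GRCm38.p6 and positions were not converted.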

Additional observations from a re-analysis of the deposited data

How the results depend on the processing

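The difference in median fold enrichment, 1.20, stayed positive under all 10 alternatives (0.88 to 1.54). Windows shifted by 0.5 Mb gave 77 windows and 1633 peaks. The difference in the share of peaks with a neighbour within 10 kb was then 10.4 percentage points, against 7.07. Windows chosen for many summits must have closer ones, so this difference from all other peaks follows largely from the rule and is a description. A threshold of 12 uterus summits gave 124 windows and 3.77 points, and one of 18 gave 45 windows and 11.5 points. With at most 1 liver summit there were 159 windows and 3308 peaks. With the MACS score at least 200 in both lists there were 50 windows and 1035 peaks, and the differences were 8.16 tags per kb and 18.3 points. With the liver list alone at that score there were 194 windows, 4192 peaks and 11.4 points. Against uterus-rich windows with liver summits the difference in tags per kb was 0.21 and the neighbour difference reversed to -3.86 points. Requiring no liver summit within 100 kb outside left 51 windows and 1041 peaks, and the interval of the difference in tags per kb then included 0 (2.43, -0.13 to 5.91). Peak midpoints gave 76 windows and 1555 peaks. No paired analysis was possible because each group has 1 library and no result comes from a test. The estrogen response element and gene alternatives were not run. The depth of 1 liver library limits what counts as empty.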

Other observations

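The 5 longest stretches without a liver summit are described here, picked by length after the values were seen. Each stretch was taken only because it held a window that met the rule. A gathering of uterus sites in such windows thus follows in part from the rule and is a description. On chromosome 15, no liver summit lay between 10889588 and 25562933, a length of 14.7 Mb. It held 48 uterus summits, and 33 of them lay in the 2 adjoining uterus-rich windows at one end. On chromosome 8, the 8.74 Mb between 98377721 and 107115962 held 61 uterus summits, 55 of them in 2 adjoining windows. A second stretch on chromosome 8, of 8.30 Mb between 14850611 and 23147742, held 35 uterus summits, 17 of them in 1 window. On chromosome 3, 22 of 43 uterus summits between 41398611 and 51006716 lay in 1 window. Chromosome 2 differed: between 43324818 and 52469608 there were 84 uterus summits, or 9.19 per Mb, of which only 17 lay in the single qualifying window. The 68 stretches held 2570 uterus summits in all, 1537 of which lay in the windows, which were chosen for holding many.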
